A study of Mus musculus with 12 samples.

Results

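Methylation of adenosine in mRNA (m6A) was described here for wild-type (WT) E14TG2a, an established line of mouse embryonic stem cells. The measure was the IP over input ratio of MeRIP-seq, in which RNA fragments bound by an m6A antibody (IP) are sequenced along with unselected fragments (input). All 12923 peak rows of the deposited m6A table were taken, which is the whole peak set of the series, and only the columns of the 2 WT libraries were described. The rows of an m6A control and of a control named Unmodified were left out of the peaks and served as reference levels. The series holds 12 samples in 6 groups of 2, input and IP for each of 3 genotypes. These are WT, Alkbh5 KO, which lacks the m6A demethylase Alkbh5, and Alkbh5 del-cIDR, which carries Alkbh5 without its C-terminal disordered region. All groups were grown in serum medium with LIF at 1000 U/ml, the MEK inhibitor PD0325901 at 1 µM and the GSK3 inhibitor CHIR99021 at 3 µM. LIF and these inhibitors together hold mouse stem cells in the naive state. The labels give no clone or culture for either WT replicate, so the spread between these libraries may be technical.

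In cells, m6A is placed on nascent mRNA by a complex of Mettl3 and Mettl14 with partner proteins, is bound by reader proteins of the YTH family, and is removed by Alkbh5 and Fto. It is known to be concentrated around stop codons, in 3′ untranslated regions and in long internal exons. In stem cells it is known to shorten the life of mRNAs of pluripotency factors and thereby to ease the exit from the naive state. A MeRIP peak is an interval of enriched reads and not a single methylated base. Its ratio rises with the share of molecules methylated and with the number of methylated sites that fragments of the interval carry.

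The WT input libraries held 25105719 and 34035774 reads in genes. At the median peak, WT replicate 1 had at least 83 input and 244 IP reads, and WT replicate 2 at least 115 and 277. These numbers are lower bounds, because reads were recovered from ratios in lowest terms. The peaks carry GRCm39 positions without strand, gene or sequence, and gene annotation, peak sequence and the stem cell markers were not analysed here.

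WT peaks covered a wide range of m6A levels, and most lay far above the unmodified control and below the m6A control. The median ratio was 1.60 in WT replicate 1 and 1.40 in WT replicate 2, 1.50 ± 0.14 in mean (SD, n = 2). The m6A control had the value 4.10 in both libraries, since the libraries are scaled to it, so the median peak stood at 39.0% and 34.2% of that control. The Unmodified row had 0.0527 in replicate 1, from at least 337 IP and 3363 input reads, and 0.0200 in replicate 2, from at least 75 and 2162. The background thus differed between the WT libraries by more than the peaks did. The median peak was 30.4 times the Unmodified row in replicate 1 and 70.1 times in replicate 2.

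The middle part of the distribution spanned 0.923 to 2.77 in WT replicate 1 and 0.819 to 2.45 in WT replicate 2 (25th to 75th percentile), a 3.00-fold and a 2.99-fold range. The 5th and 95th percentiles were 0.446 and 5.81 in replicate 1, and 0.389 and 5.11 in replicate 2. Their quotients were 13.0 and 13.1, so the width of the distribution was almost the same in both libraries although its centre was not. A ratio above 1 was found at 72.0% and 66.5% of the peaks, a ratio above 2 at 39.3% and 33.5%, and a ratio above 5 at 7.52% and 5.35%. Since the libraries are scaled to the m6A control, a ratio of 1 is not a line of no enrichment. The m6A control was exceeded by 1518 peaks (11.7%) in replicate 1 and by 1196 (9.25%) in replicate 2, and by 1036 peaks (8.02%) in both. At the other end, 41 peaks in replicate 1 and 14 in replicate 2 were at or below the Unmodified row of their library, 12 of them in both. A ratio of 0 was listed for 7 peaks in each library, and for 1 peak in both, on chromosome 11 (82656741 to 82656952). A low ratio in WT does not remove a peak from the table, since 1 common peak set serves every genotype.

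**Figure D1:**
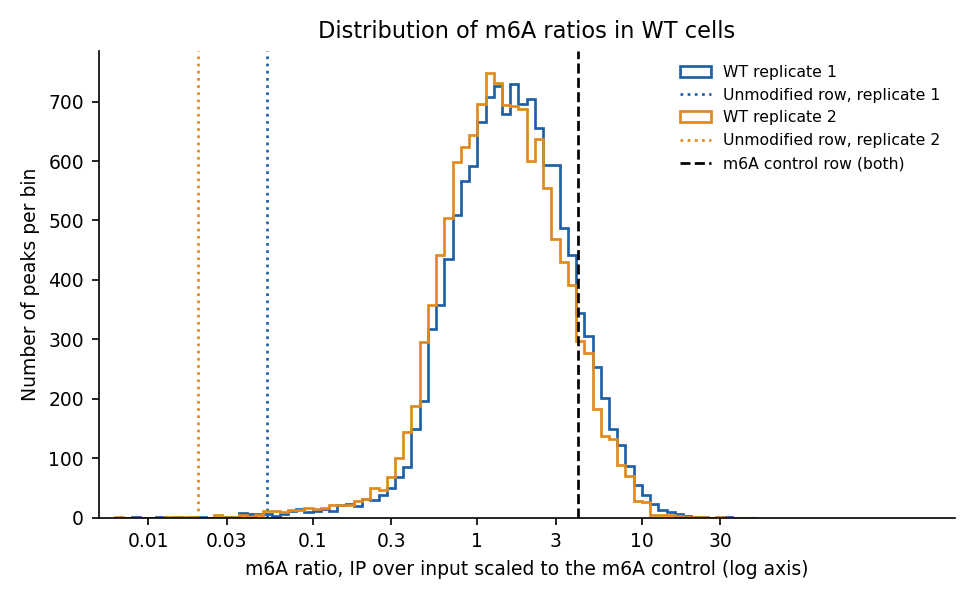
Number of peaks (vertical axis) by m6A ratio (horizontal log axis) in WT replicate 1 (blue) and WT replicate 2 (orange), with the m6A control at 4.10 (dashed) and the Unmodified row of each library (dotted). Both outlines have 1 hump with medians of 1.60 and 1.40, and the bulk of both lies between the control rows.

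The WT libraries ranked the peaks alike. They differed by a common factor and by scatter between peaks, with an SD of 0.375 for the log2 difference. The ratio was higher in replicate 1 at 74.2% of the 12910 peaks that were above 0 in both, with a median log2 difference of 0.17, or 1.13-fold. Across these peaks Pearson's r of the log2 ratios was 0.951, and across the full set Spearman's rho was 0.948 (n = 12923 peaks, which share libraries and are not independent). The libraries lay within 2-fold of each other at 12548 peaks, 97.2% (95% exact binomial interval 96.9% to 97.5%, counting error only). Once the common factor was removed, 97.8% of the peaks were within 2-fold in WT. The share was 97.6% in KO and 96.6% in del-cIDR.

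The difference between WT libraries narrowed as recovered input reads, which are lower bounds of depth, rose above 20. Peaks with 1 to 10 recovered input reads in the lower library had an SD of 0.53 for the log2 difference (n = 1751 peaks). With 11 to 20 reads it was nearly the same, 0.52 (n = 1442). Peaks with 51 to 100 reads had 0.32 (n = 2139), and peaks with over 500 reads had 0.14 (n = 926). The common factor did not move with depth, with a median log2 difference between 0.17 and 0.19 in each depth class. Of the 362 peaks that lay at least 2-fold apart, 334 had fewer than 50 recovered input reads in at least 1 library, or no recovered number. Ratios were also lower at deeper peaks. The median fell from 2.00 and 1.77 in the class of 1 to 10 reads to 1.27 and 1.14 in the class over 500. Input reads, which are the denominator of the ratio and known here as lower bounds, had a rho with the ratio of -0.17 in replicate 1 and -0.16 in replicate 2. Ranked against the ratio of the other library, rho was -0.16 for input reads of replicate 1 and -0.14 for those of replicate 2, over the peaks with recovered reads. The part of the shared denominator was not tested.

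**Figure D2:**
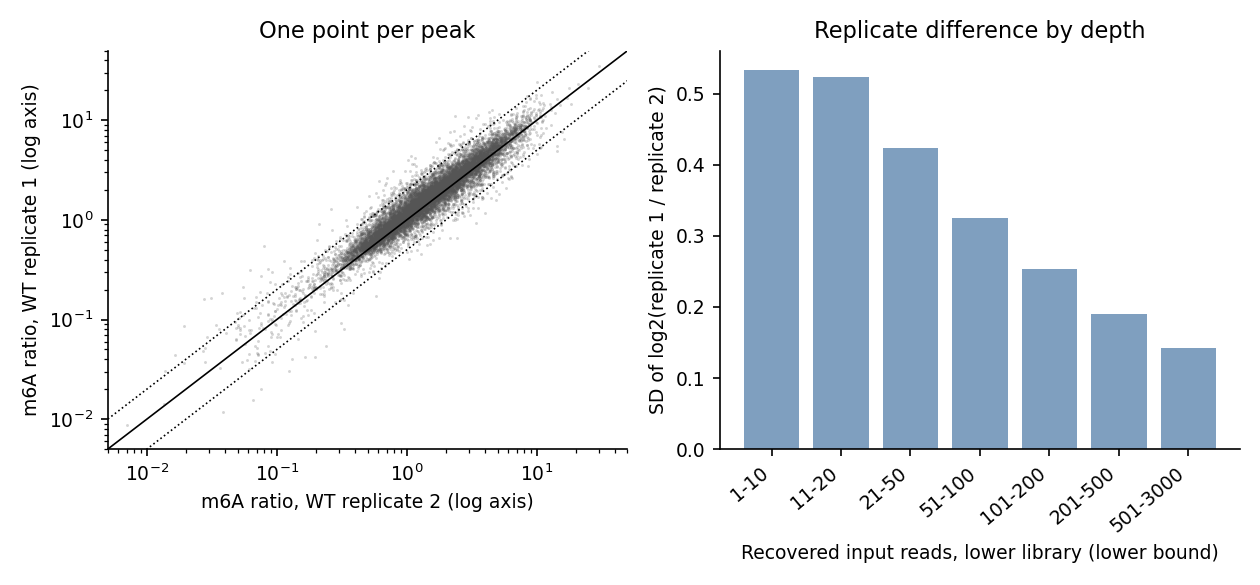
Left, m6A ratio of each peak in WT replicate 2 (horizontal log axis) and WT replicate 1 (vertical log axis), with the line of equality and dotted lines at 2-fold. Right, SD of the log2 difference between the WT libraries (vertical axis) by recovered input reads of the lower library (horizontal axis), which falls from 0.53 in the shallowest class to 0.14 in the deepest.

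Among peaks with a ratio of at least 1 in both WT libraries, the 5 with the largest gap between them were each higher in replicate 1. Over the whole set, log2 differences reached 2.78 with replicate 1 higher and -2.23 with replicate 2 higher. Among the peaks with a ratio of at least 1, the largest was 2.25, on chromosome 8 (72954185 to 72954976), with 11.2 in replicate 1 and 2.35 in replicate 2. The first value rested on at least 4 input reads and the second on at least 46. KO had 4.05 and 3.39 there and del-cIDR had 3.59 and 2.74, so replicate 1 of WT was above the 5 other libraries. Next came peaks on chromosome 12 (105560680 to 105561330), with 4.41 and 1.07, and on chromosome 16 (17027998 to 17028660), with 4.04 and 1.02. Peaks on chromosome 9 (50755198 to 50755726) had 6.72 and 1.78, and on chromosome 2 (175035187 to 175035445) 6.12 and 1.67. Each of these 5 peaks had at most 16 recovered input reads in replicate 1, which is a lower bound.

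Peaks lay on each of the 19 autosomes and on X and Y, and their density differed several-fold between chromosomes. The density was counted per Mb between the first and the last peak of a chromosome. It was 8.74 peaks per Mb on chromosome 11 (1038 peaks), followed by chromosome 17 with 7.23 (665 peaks), chromosome 19 with 7.19 (417 peaks) and chromosome 7 with 7.18 (1015 peaks). Chromosome 14 had the lowest density among the autosomes, 3.33 (396 peaks), 2.63 times below chromosome 11. Chromosome 3 had 3.63 (558 peaks) and chromosome 1 had 3.80 (721 peaks). The X chromosome had 2.00 (327 peaks), 4.36 times below chromosome 11. In number, chromosomes 2, 11 and 7 led with 1047, 1038 and 1015 peaks, 24.0% of the whole set. The density is a property of the peak set, which is common to the genotypes, and has no replicate. The number of transcribed genes per chromosome, which limits where m6A of mRNA can be found, was not analysed here.

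The level of m6A varied far less between autosomes than the density. Autosome medians lay between 1.51 and 1.76 in WT replicate 1, a 1.16-fold range, and between 1.29 and 1.55 in WT replicate 2, a 1.20-fold range. The distance between the WT libraries, 1.60 against 1.40 over all peaks, was about as large as these ranges. The order of the autosomes nevertheless was much the same in both libraries (Spearman's rho 0.914 over 19 autosomes, which share libraries). Chromosome 3 had the highest autosome median in both, 1.76 and 1.55, and chromosome 14 the lowest, 1.51 and 1.29. Density and median ratio were only weakly related over autosomes (rho -0.09 in replicate 1 and -0.14 in replicate 2).

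The X chromosome combined few peaks with lower ratios. Its median was 1.40 in replicate 1 and 1.20 in replicate 2, below each autosome of the same library, and log2 differences from the library median were -0.19 and -0.23. The libraries of the other genotypes, which played no part in choosing X, were on the same side. KO libraries were at -0.16 and -0.15, and del-cIDR libraries at -0.29 and -0.16. For chromosome 3 the WT libraries were both at 0.14. The other 4 libraries ranged from 0.13 to 0.19. X peaks were narrower, with a median of 405 bases against 433 to 485.5 (the latter on chromosome 16) on the autosomes. Within a width class the X was not always lower. At 501 to 750 bases X peaks had 1.69 and 1.37 (n = 70 peaks) against 2.09 and 1.83 on autosomes (n = 3030), while at 200 to 250 bases X peaks had 0.832 and 0.806 (n = 54) against 0.784 and 0.692 (n = 1744). At 251 to 350 bases X peaks had 1.17 and 0.974 against 1.16 and 1.02 on autosomes. At 351 to 500 bases they had 1.41 and 1.41 against 1.55 and 1.36. In both of these classes the WT libraries fell on different sides. At 751 to 9632 bases X peaks were slightly lower in both, with 2.45 and 2.27 (n = 44) against 2.66 and 2.32 (n = 2514). The part of width in the low X median was not tested further.

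**Figure D3:**
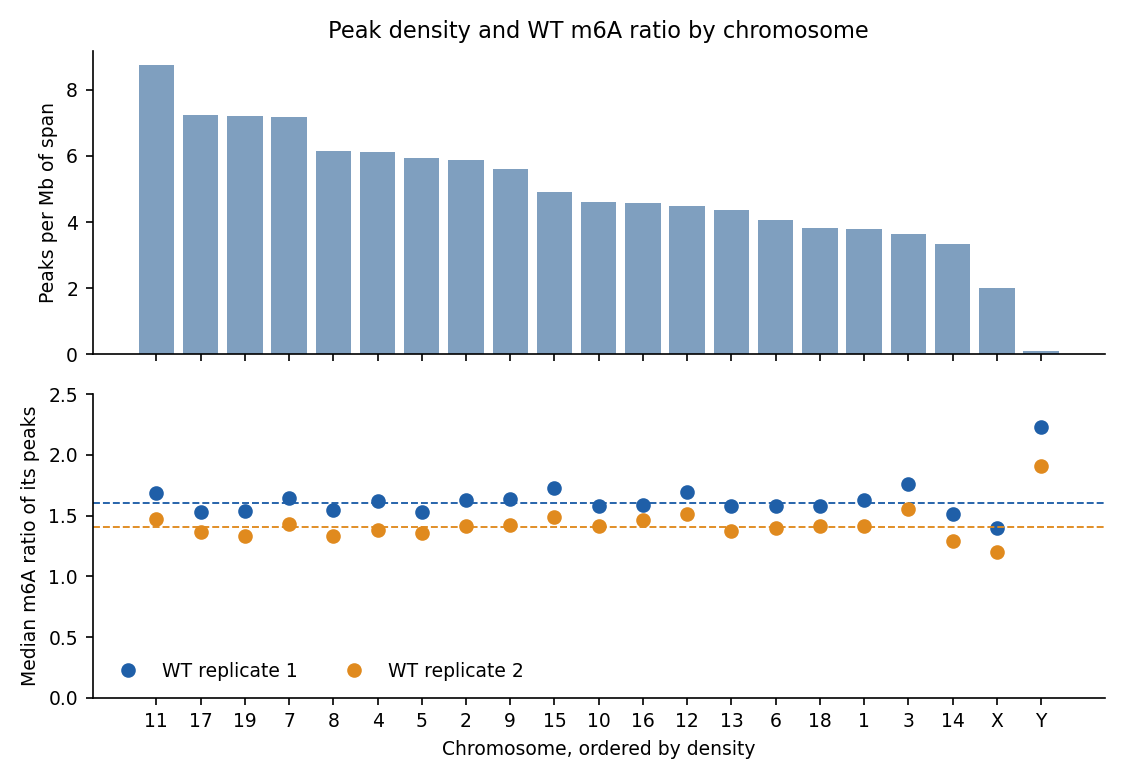
Top, peaks per Mb between the first and last peak of each chromosome, ordered from chromosome 11 (8.74) to X (2.00) and Y. Bottom, median m6A ratio of the chromosome's peaks in WT replicate 1 (blue) and WT replicate 2 (orange), with the median of each library over all peaks as dashed lines. Densities differ several-fold while autosome medians stay within 1.51 to 1.76 and 1.29 to 1.55.

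The Y chromosome held 10 peaks and 2 unplaced sequences held 6, too few for a density to be read. On Y the strongest peak (90822369 to 90824153, 1785 bases) had 7.85 and 7.86 in the WT libraries, with at least 482 and 1250 input reads, and was among the deeper peaks named here. A second Y peak (90749138 to 90750141) had 7.32 and 5.71. The Y peaks nearest to the start of the chromosome were low, with 0.631 and 0.595 (1263192 to 1263434) and 0.329 and 0.525 (2286980 to 2287266). The 4 peaks of the unplaced sequence JH584304.1 ran from 0.537 and 0.507 to 8.81 and 7.43, and those of MU069434.1 had 1.65 and 1.76, and 3.11 and 2.39.

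Along the chromosomes the peaks were gathered in part of the genome. Of 2656 bins of 1 Mb between the first and last peak of the chromosomes, 853 (32.1%) held no peak, and the median of the other bins was 5. The densest 337 bins, 12.7% of the bins, held 50% of the peaks. A bin with 30 or more peaks occurred 29 times. The highest numbers were 44 on chromosome 10 (80000001 to 81000000) and 44 on chromosome 3 (88000001 to 89000000), 43 on chromosome 7 (127000001 to 128000000) and 42 on chromosome 15 (76000001 to 77000000). Median ratios in those 4 bins were 1.77 to 1.87 in replicate 1 and 1.39 to 1.62 in replicate 2. Chromosome 7 held 6 of the 12 densest bins. Its bin at 29000001 to 30000000 held 40 peaks with medians of 2.07 and 1.71, and the bin at 42000001 to 43000000 held 36 with 1.35 and 1.15. The longest stretch without a peak on an autosome was 12.4 Mb, on chromosome 15, and ended at 25364270.

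At a finer scale, 1852 of 12900 gaps between neighbouring peaks (14.4%) were at most 1000 bases and 4333 (33.6%) at most 10000 bases, against a median gap of 30565 bases. Joining peaks up to 1000 bases apart gave 11071 loci, of which 9565 had 1 peak, 1233 had 2 and 273 had 3 or more. Peaks that stood alone had medians of 1.63 and 1.43, and the 3358 peaks in joined loci (26.0%) had 1.53 and 1.35. Most peaks, 7, were joined on chromosome 2 (121130481 to 121137699), where the peak means ran from 0.618 to 2.48. A locus of 6 peaks on chromosome 5 (137780181 to 137785031) held peak means from 0.0704 to 8.24 within 4851 bases. The 6 peaks of a locus on chromosome 7 (135296313 to 135302627) were uniformly low, from 0.464 to 1.04. Strong and weak peaks thus occurred side by side in some loci and not in others.

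Neighbouring peaks up to 1000 bases apart were slightly more alike than distant ones, with no steady trend at longer distances. To keep a shared library out of the comparison, the first peak of a pair was read in WT replicate 1 and the second in WT replicate 2, each centred on its library. Pairs up to 1000 bases apart were within 2-fold in 55.0% of cases (1850 pairs, rho 0.145). For pairs over 100000 bases apart the share was 46.5% (3713 pairs, rho 0.00136), and for pairs 1000 to 5000 bases apart 43.9% (1508 pairs, rho -0.02). Between these distances it was 47.8% at 5000 to 20000 bases (2138 pairs, rho 0.07) and 47.0% at 20000 to 100000 bases (3677 pairs, rho 0.02). The same peak read in both libraries was within 2-fold in 97.8%.

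Peak width ran from 200 to 9632 bases with a median of 455 (25th to 75th percentile 313 to 676), and the peaks covered 7.10 Mb in all. The wider the peak, the higher was its ratio. In the 1800 peaks of 200 to 250 bases the median ratio was 0.785 in replicate 1 and 0.696 in replicate 2, 0.740 ± 0.062 in mean (SD, n = 2). It was 1.16 and 1.02 at 251 to 350 bases, 1.55 and 1.36 at 351 to 500 bases, 2.07 and 1.82 at 501 to 750 bases, 2.45 and 2.13 at 751 to 1000 bases, and 2.84 and 2.49 at 1001 to 1998 bases (1094 peaks). The 74 peaks of 2001 to 9632 bases reached 3.69 and 3.04, 3.37 ± 0.46 in mean. At each step from 1 class to the next wider one, the higher WT library of the narrower class lay below the lower WT library of the wider class.

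The share of peaks above the m6A control rose in the same order, from 1.17% and 0.889% in the narrowest class to 43.2% and 36.5% in the widest. Over the whole set Spearman's rho of width and ratio was 0.509 and 0.503 (n = 12923 peaks). It was 0.570 and 0.565 among the 6923 peaks with at least 50 recovered input reads in both libraries. Recovered input reads also rose with width, from 61 and 79 in the narrowest class to 182 and 376 in the widest, while input reads per kb fell, from 276 and 370 to 77.2 and 184. A peak caller extends an interval as far as enrichment is found, so width and ratio are not independent measures.

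**Figure D4:**
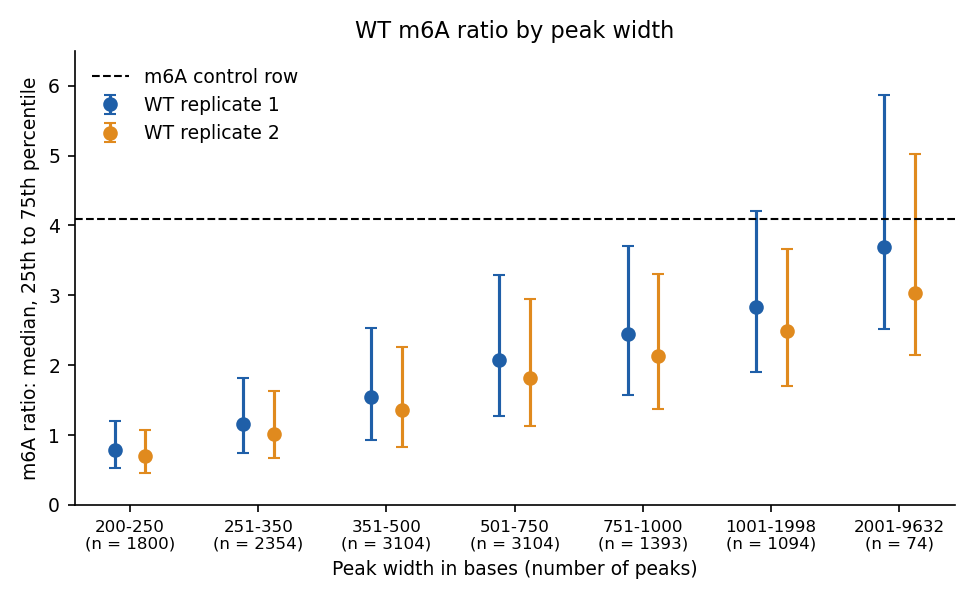
Median m6A ratio (points) with the 25th to 75th percentile over peaks (bars) in classes of peak width, for WT replicate 1 (blue) and WT replicate 2 (orange), with the m6A control dashed. Medians climb from 0.785 and 0.696 in the narrowest class to 3.69 and 3.04 in the widest.

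The 5 peaks over 5000 bases were each above the median ratio of their library. The widest, on chromosome 3 (6363063 to 6372694, 9632 bases), had 6.68 in replicate 1 and 6.01 in replicate 2. A peak of 7533 bases on chromosome 15 (75974190 to 75981722) had 3.77 and 2.56, on at least 6 and 67 input reads. A peak of 6017 bases on chromosome 12 (112742225 to 112748241) had 3.65 and 3.72. A peak of 5128 bases on chromosome 2 (80642186 to 80647313) had 8.79 and 8.05, rank 161 in replicate 1 and 137 in replicate 2. On chromosome 10 (27694469 to 27701721, 7253 bases) the libraries were further apart, at 5.84 and 10.4, on at least 51 and 1 input reads.

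The strongest loci were largely shared between the WT libraries. The top 1% of each library was 129 peaks, above 9.41 in replicate 1 and 8.12 in replicate 2, and 78 peaks (60.5%) were in both. Choosing peaks by their value raises that value, so the peaks chosen in 1 library were read in the other. The 129 peaks chosen in replicate 1 had a median of 11.05 there and 8.62 in replicate 2, where 125 of them exceeded the m6A control and the lowest had 2.35. Those chosen in replicate 2 had a median of 9.49 there and 10.2 in replicate 1, where 127 exceeded the control and the lowest had 3.48. Over all peaks the control was exceeded at 11.7% in replicate 1 and 9.25% in replicate 2. The control at 4.10 lies well below both cut-offs, so passing it was a low bar for these peaks.

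The 78 shared peaks were wider than the whole set and had fewer recovered input reads. Their median width was 622 bases against 455, 11 of them (14.1%) were over 1000 bases wide against 9.04% of the whole set, and 0 were up to 250 bases wide against 13.9%. In both libraries 19 of them (24.4%) had at least 50 recovered input reads, against 53.6% of the whole set. They lay on 17 chromosomes, with 10 on chromosome 2, 9 on chromosome 7 and 8 on chromosome 1. Chromosome 11, with 8.03% of the peaks, held 4 of the 78 (5.13%), chromosome 18, with 2.60% of the peaks, also held 4, and chromosomes 10, 13, 17 and Y held 0. Of the 78, 55 (70.5%) stood alone in their locus, close to the 74.0% of the whole set. All 78 exceeded the m6A control in both KO and both del-cIDR libraries, which had no part in choosing them. This was a low bar, since the 78 were chosen above 9.41 and 8.12 in WT and the control stood at 4.10. The share of all peaks above the control in the KO and del-cIDR libraries was not counted. Between 52 (66.7%) and 58 (74.4%) of the 78 were also in the top 1% of each of these 4 libraries.

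The strongest WT peak lay on chromosome 7 (96960990 to 96961961, 972 bases). It had 34.8 in replicate 1 and 30.1 in replicate 2, rank 1 in both, from at least 8193 IP and 124 input reads, and 10543 and 202. Both KO libraries (41.2 and 37.3) were above both WT libraries, and the del-cIDR libraries (28.4 and 39.0) lay on either side of them. A second strong peak lay on the same chromosome less than 1 Mb away (96555213 to 96555960), with 21.3 and 17.7 in WT, rank 5 in both libraries. The peak on chromosome 3 (54806302 to 54806803) had 21.4 and 24.8, but on at least 18 and 20 input reads. The peak on X (133650419 to 133650945) had 23.4 and 20.7, rank 3 in both, on at least 5 and 49 input reads. The chromosome with the lowest median thus also held 1 of the strongest peaks.

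Among the other peaks of the leading 10, agreement between the WT libraries varied. On chromosome 18 (75567672 to 75568509) the values were 16.7 and 17.2, on at least 23 and 4 input reads. On chromosome 4 (94938051 to 94938789) they were 14.3 and 15.3, on at least 76 and 83. The libraries were close together in both cases. On chromosome 8 (79916764 to 79917399) the values were 14.7 and 18.2, on at least 1 and 37 input reads. On chromosome 2 (53974493 to 53975003) they were 19.1 and 13.2, on at least 11 and 19. On chromosome 19 (56711566 to 56712450) they were 24.0 and 9.98, on at least 7 and 10 input reads, so the rank was 2 in replicate 1 and 49 in replicate 2.

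The ninth peak, on chromosome 11 (55064431 to 55064918), had the most recovered input reads of the 10, at least 143 and 258. WT had 16.4 and 14.4, del-cIDR had 12.3 and 22.0, and KO had 30.1 and 36.1. Both KO libraries were above the other 4, and WT lay within the range of del-cIDR. Since high WT values chose these peaks, no test is given for them.

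**Figure D5:**
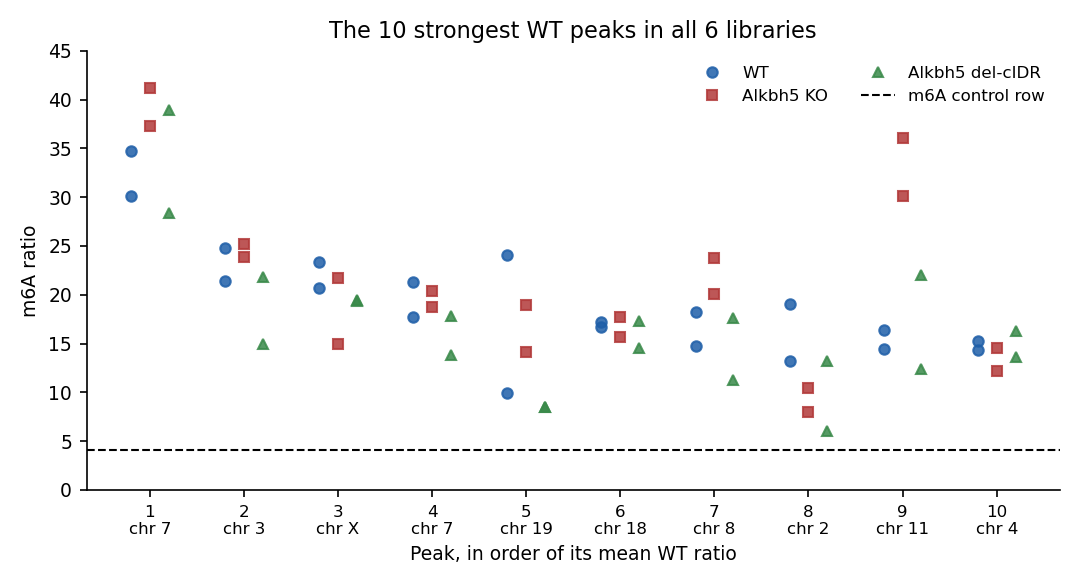
m6A ratio (vertical axis) of the 10 strongest WT peaks (horizontal axis, with their chromosome) in each library of WT (circles), Alkbh5 KO (squares) and Alkbh5 del-cIDR (triangles), with the m6A control dashed. The lowest point is 6.06, in del-cIDR at the eighth peak, above the control at 4.10, and the KO libraries stand apart at the ninth peak.

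Each of the 21 chromosomes had a peak above the m6A control in both WT libraries. The strongest peak of a chromosome had a median of 14.7 in replicate 1 (4.89 to 34.8) and 13.0 in replicate 2 (6.97 to 30.1). The lowest of them in replicate 1 was on chromosome 10 (126930365 to 126930623, 259 bases), where replicate 2 had 14.3 and replicate 1 had 4.89, on at least 11 and 27 input reads. Values agreed more closely on chromosome 1 (192579346 to 192579951), with 13.6 and 12.9, on chromosome 12 (79010883 to 79011661), with 12.7 and 13.0, and on chromosome 14 (20786059 to 20786793), with 10.6 and 9.49. On chromosome 15 the strongest peak was also wide (100949923 to 100952454, 2532 bases) and had 11.8 and 13.8, on at least 165 and 1 input reads. Chromosome 17 led with a wide peak too (12235111 to 12238085, 2975 bases), with 11.9 and 7.07, where the KO libraries reached 12.9 and 24.1 and those of del-cIDR 6.01 and 4.84. On chromosome 13 (102871276 to 102871907) the values were 10.4 and 6.97. The remaining leaders were on chromosome 5 (26162560 to 26163056), with 16.7 and 8.88, chromosome 6 (67237055 to 67237591), with 12.9 and 10.4, chromosome 9 (108682939 to 108683348), with 15.4 and 10.4, and chromosome 16 (33091455 to 33092142), with 15.7 and 9.57. In these 4 replicate 1 was the higher library.

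To show where WT differs from the altered genotypes, WT was set against the mean of KO and del-cIDR at 9451 peaks, those whose mean over the 6 IP libraries reached 1. No peak passed in either direction (limma on log2(ratio + 1), smallest adjusted p = 0.435, 0% of peaks called). An unadjusted p under 0.05 was found for 160 peaks with WT higher (1.69% of those tested) and 492 with WT lower (5.21%). Without del-cIDR replicate 1 the number that passed was 1, and without del-cIDR replicate 2 it was 3. Over these peaks the median difference of WT from the altered genotypes was -0.06 on the log2(ratio + 1) scale, but 0.17 before the libraries were scaled to the m6A control, and WT was higher at 32.3% of them on the deposited scale. Against KO alone the median difference was -0.13. Against del-cIDR alone it was 0.015, less than the difference from both genotypes moved when a WT library was left out, so no side was established there, and the difference between these values was not tested. WT library medians on that scale were 1.64 and 1.52, 1 within and 1 below the range of the other 4, from 1.57 to 1.79. The exact two-sided permutation test over libraries gave p = 0.533, where 15 splits allow no less than 0.0667. The median difference shrank to -0.01 when WT replicate 2 was left out and was -0.12 when WT replicate 1 was left out.

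The 3 peaks with the smallest p in each direction are given as values, since none passed. Such separation was not particular to them. Both WT libraries were above all other libraries at 2.22% of the tested peaks and below all of them at 10.6%. On chromosome 2 (126517429 to 126517994) WT had 1.84 and 1.92, above the other libraries at 0.643 to 1.19. On chromosome 3 (133015558 to 133015881) WT had 2.99 and 3.99 against 1.20 to 1.97, and on chromosome 13 (62009420 to 62009712) 5.14 and 5.18 against 1.64 to 2.83. WT was below the other libraries on chromosome 2 (26909910 to 26910135), with 0.511 and 0.459 against 0.928 to 1.57. The same held on chromosome 5 (48142347 to 48142553), with 0.489 and 0.404 against 0.997 to 1.62. It also held on chromosome 3 (30752463 to 30752702), with 0.573 and 0.705 against 1.19 to 2.01. These 3 peaks had WT means of 0.485, 0.446 and 0.639, so they reached the minimum mean of 1 only through the altered libraries. The first peak with WT higher reached it only through WT, since its altered mean was 0.887. Their separation therefore partly reflects the filter and is no support for a difference.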

How the data were processed

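Per the submitters' processing notes, the tools were HISAT2, MACS2, bedtools, fastp, featureCounts, Picard and SAMtools and the build was GRCm39, without roles or versions. The deposited m6A values are a ratio of IP to input per peak times 1 constant per library, as read from the values, which puts the m6A control at 1 common value. Starts were converted to count from 1. The deposited gene values of the inputs are a signal, whole reads times 1 factor, and in KO replicate 2 deposited counts. They served for the depth and the control's input reads only, so no gene was tested. With these, whole reads were recovered for 99.4% and 98.9% of WT peaks (relative tolerance 1e-10, denominators up to 3000).

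Levels are medians over peaks per library. The 6 IP libraries were compared on log2(ratio + 1) in limma 3.58.1 under R 4.3.3, with a variance trend and Benjamini-Hochberg adjustment at 0.05, and tested on simulated data. Named peaks follow rules: the 10 strongest within the top 1% of both WT libraries, the 5 widest, the strongest of each chromosome, the 5 with the largest log2 difference between WT libraries among peaks with a ratio of at least 1 in both, and, with no call, the 3 smallest p each way. Y, unplaced and joined loci were named after their values were seen. Members and rules were chosen with earlier results of these data known. Alternatives covered scaling, depth, filters, pseudocount, block and left-out libraries. Gene lists and marker lists could not be applied, since no annotation of the build was used here. Python 3.11.15 was used.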

Additional observations from a re-analysis of the deposited data

How the results depend on the processing

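Without WT replicate 1 or 2 the median ratio ranged from 1.40 to 1.60, the share above 1 from 66.5% to 72.0%, and Spearman's rank correlation of width and ratio from 0.503 to 0.509. Before the constant of each library was applied, the median was 2.74 and 90.04% of peaks were above 1, while the share above the m6A control kept its value, since the control moves alike. The median was 2.07 over peaks with a mean of at least 1 and 1.36 over peaks with 50 input reads in both libraries. The rank correlation of width and ratio was 0.425 without the shortest 10% and 0.568 with 50 input reads. The share within 2-fold was 99.6% on log2(ratio + 1), 99.6% with 50 input reads and 97.8% after centring. The top 1% shared 64 of 111 joined loci, and 49 of 69 peaks with 50 input reads. Of the 129 strongest peaks by mean, 107 were also strongest by the lower library. Chromosome 11 held 8.03% to 8.17% of peaks or loci under each setting and stayed densest in all 3 counts, ahead of chromosome 17 or 7. For WT against the altered genotypes the number of calls was 0 in the other settings run, 0 to 3 with a library left out, and 18 with a replicate block (7 with WT higher, 11 lower). The labels do not say whether same-numbered libraries were handled together. Taken over all tested peaks, same-numbered libraries did not deviate together (correlations -0.02, 0.02 and 0.02). Whether they did so at some of the peaks was not tested. The median difference was -0.12 to -0.01 with a library left out, and turned to 0.17 before the constants. With settings chosen after seeing the data, it was -0.13 against KO alone, 0.015 against del-cIDR alone and 0.0018 after centring, which removes a common shift. The cause of the other changes was not tested. With 2 libraries, leaving 1 out moves a mean by less than 1 SD by construction, so it shows no stability of single peaks. Ratios at peaks with few input reads are limited by depth.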
